A study of Mus musculus with 2 samples.

Results

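The E2F and RB family was followed in mouse intestinal organoids (mIOs) with and without dextran sulfate sodium (DSS), a sulfated polysaccharide used to injure intestinal epithelium. The 10 members were taken by gene symbol from the count table, as the activators E2f1, E2f2 and E2f3, the repressors E2f4, E2f5, E2f6, E2f7 and E2f8, and the pocket proteins Rb1 and Rbl1. All 10 were among the 19294 listed genes, and each passed the minimum of 10 counts in at least one library that 17235 genes passed. The mIOs were grown from jejunal crypts of Lgr5-EGFP-IRES-creERT2 mice, which carry EGFP and a tamoxifen-inducible Cre at the Lgr5 locus in both groups, in medium with EGF, Noggin and R-spondin. One group was the untreated control and the other was treated with DSS, both labelled day 4, and the DSS concentration and the age of the mice are not given in the sources used here. Each condition was 1 library of poly(A) RNA, so differences have no replicate check, nothing was tested, and all intervals cover counting error only.

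E2F proteins bind DNA at the promoters of genes for S phase. E2F1, E2F2 and E2F3 activate these genes with a DP partner until a pocket protein binds them. The pocket proteins are RB (Rb1), p107 (Rbl1) and p130 (Rbl2), which lose their hold on E2Fs when cyclin-dependent kinases phosphorylate them. E2F4 and E2F5 carry p107 and p130 to promoters in resting cells, as part of the DREAM complex with the MuvB proteins. E2F6 represses with polycomb proteins and needs no pocket protein, and E2F7 and E2F8 repress with tandem DNA-binding domains and no DP partner. In the intestine, crypt cells cycle rapidly and villus cells leave the cycle, and loss of RB in mouse villus cells is known to let them replicate DNA again.

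Several family genes are themselves E2F targets, so the promoter sequence of members that moved by very different amounts is shown first. RefSeq promoter windows on GRCm38.p6, from 250 bases before to 50 bases after an annotated start, were found for 7 of the 10 members, and E2f4, E2f5 and Rb1 had no entry. Below are the 250 bases before the start for E2f7 and E2f8, the members with the lowest ratios, for Rbl1 and for E2f3, the E2F with the ratio closest to 0. They are written 5′ to 3′ on the strand of the gene. Capitals mark an E2F site (TTTCCCGC, TTTCGCGC, TTTGCCGC or TTTGGCGC), its core (the last 7 letters of any of these) or the cell cycle homology region, CHR, that MuvB can bind (TTTGAA), on either strand. Every E2F site contains a core, and it is counted under both.
E2f7, chr10:110745189-110745438, plus strand: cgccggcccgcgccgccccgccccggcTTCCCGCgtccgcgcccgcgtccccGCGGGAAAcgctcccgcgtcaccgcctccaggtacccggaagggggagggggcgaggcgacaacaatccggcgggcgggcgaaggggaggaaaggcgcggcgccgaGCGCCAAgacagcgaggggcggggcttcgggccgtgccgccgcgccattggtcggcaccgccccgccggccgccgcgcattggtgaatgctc
E2f8, chr7:48881597-48881846, minus strand: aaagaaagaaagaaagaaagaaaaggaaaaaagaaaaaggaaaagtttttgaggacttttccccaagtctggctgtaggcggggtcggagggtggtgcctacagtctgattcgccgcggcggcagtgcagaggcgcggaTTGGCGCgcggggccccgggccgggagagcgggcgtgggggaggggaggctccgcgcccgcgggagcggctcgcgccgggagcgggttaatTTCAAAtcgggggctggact
Rbl1, chr2:157204535-157204784, minus strand: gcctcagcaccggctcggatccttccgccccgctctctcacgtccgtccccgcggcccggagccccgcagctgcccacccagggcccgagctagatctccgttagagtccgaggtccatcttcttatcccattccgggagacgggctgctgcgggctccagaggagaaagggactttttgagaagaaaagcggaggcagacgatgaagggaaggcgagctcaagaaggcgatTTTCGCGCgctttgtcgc
E2f3, chr13:29986064-29986313, minus strand: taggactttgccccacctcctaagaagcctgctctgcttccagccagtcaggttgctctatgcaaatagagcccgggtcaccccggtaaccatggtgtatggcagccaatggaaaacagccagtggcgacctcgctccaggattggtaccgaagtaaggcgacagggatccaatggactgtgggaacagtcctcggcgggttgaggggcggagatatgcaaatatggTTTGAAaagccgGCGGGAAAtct

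The E2f7 window held an E2F site at positions -198 to -191 from the start, read on the opposite strand, and further cores at -223 to -217 and -92 to -86. The E2f8 window held a core at -111 to -105 and a CHR at -20 to -15. In Rbl1 the site TTTCGCGC lay at -18 to -11. The upstream E2f3 window held a CHR at -23 to -18 and an E2F site at -11 to -4, with a core at 19 to 25 after the start, and the downstream E2f3 window held none of these letters. E2f2 had TTTGGCGC at 40 to 47 bases after the start of its upstream window and a CHR in the downstream one. The E2f1 window held no match, but all 250 of its upstream bases lie inside an annotated E2f1 exon, so it does not cover the sequence before the start of the longer transcript. The E2f6 window had no match either. Taking all windows of a gene together, 4 of 7 members had an E2F site, 5 had a core and 3 had a CHR. Of the 12057 genes with a window and at least 10 counts in one library, 4.36% had an E2F site, 18.04% a core and 15.1% a CHR. In all 32851 windows of the table the shares were 2.26%, 9.57% and 17.9%. The members' windows had a median GC content of 67.0%, against 60.0% for the genes with at least 10 counts. The letters of the E2F site and core are themselves rich in G and C, and those of the CHR are not. A match is a description of letters and not a bound site. The counts are per gene and do not separate the windows of a gene, such as those of E2f3. Whether any match bears on a ratio was not tested.

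**Figure D1:**
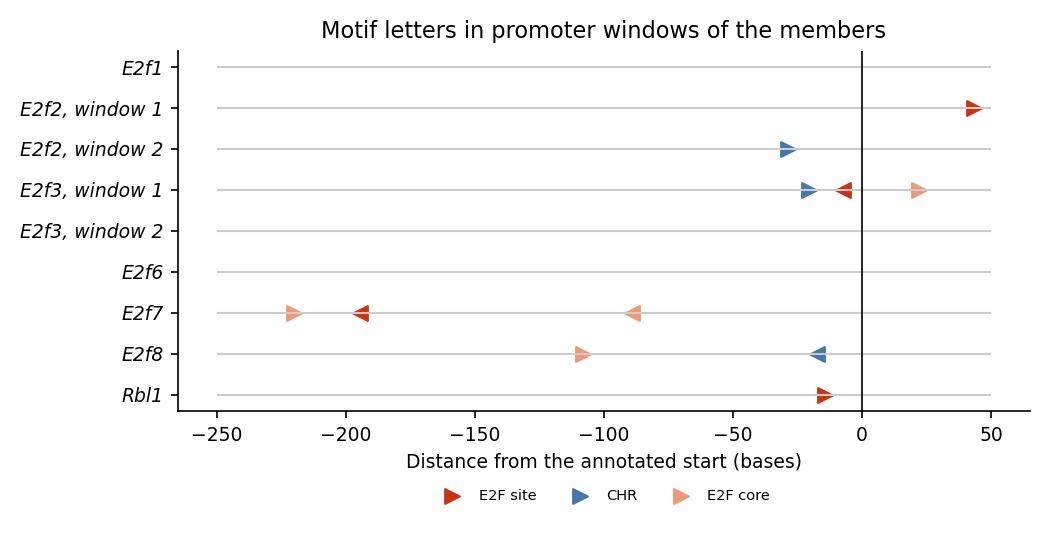
Position of motif letters in the RefSeq promoter windows of 7 members, as distance in bases from the annotated start (vertical line), with arrowheads to the right for the strand of the gene and to the left for the opposite strand. E2F sites stand in E2f2, E2f3, E2f7 and Rbl1, the E2f8 window holds a core and a CHR, and the E2f1, E2f6 and second E2f3 windows hold no match.

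Total counts were 65493032 for the control and 59746968 for the DSS library, scaled by the TMM factors 1.09 and 0.915. No listed gene was at 0 in either library, so any gene with 0 counts in a library is outside the shares of genes by ratio given here. A level is given in CPM, the TMM-scaled counts relative to library size, or per kilobase of the longest annotated transcript where genes are compared with each other. A ratio is the log2 of the DSS level over the control level with an exact Clopper-Pearson 95% interval. The median log2 ratio over the 17235 genes was -0.06. The labels call the cells intestinal stem cells. The 7 epithelial markers were all listed, summing to 4927 CPM without and 7920 CPM with DSS, with Krt8, Krt20 and Vil1 higher in the DSS library, Cdx2 lower (log2 ratio -1.35), and a list median of 0.04. The 5 stem cell markers (Lgr5, Olfm4, Ascl2, Smoc2, Axin2) summed to 832 CPM and 130 CPM, and the 5 enterocyte markers (Alpi, Sis, Fabp1, Apoa1, Apoa4) to 1394 CPM and 18400 CPM. The part of this shift in cell type markers in the results that follow was not tested, and fewer cells of a type cannot be told apart from less RNA per cell. Of the immune, mesenchymal and endothelial markers, Ptprc, Cd3e, Adgre1, Col1a2, Col3a1, Cdh5 and Kdr were among those not listed, and the listed ones summed to 7.15, 5.73 and 0.168 CPM without and 12.8, 34.9 and 1.01 CPM with DSS, with Vim giving 5.23 and 34.0 CPM of the mesenchymal sums.

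All 8 E2F genes had log2 ratios below 0, where 52.0% of all genes stood (48.0% were above 0), and the summed E2F level went from 274.6 to 120.5 CPM, a log2 ratio of -1.19. The depth of the difference followed the roles only in part. The atypical repressors E2f7 and E2f8 were lower in the DSS library by more than 10-fold, E2f1 and E2f2 by 3.99 and 3.09-fold, and E2f3 by 1.06-fold. Among pocket proteins Rb1 was 2.57-fold higher in the DSS library and Rbl1 1.90-fold lower. Of the 10 members, 2 had a log2 ratio of -2 or less, where 6.54% of the 17235 genes did, and 5 had a ratio of -1 or less, where 20.2% did. None was at 2 or more, against 7.87% of genes, and Rb1 alone was at 1 or more, against 19.3%.

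**Figure D2:**
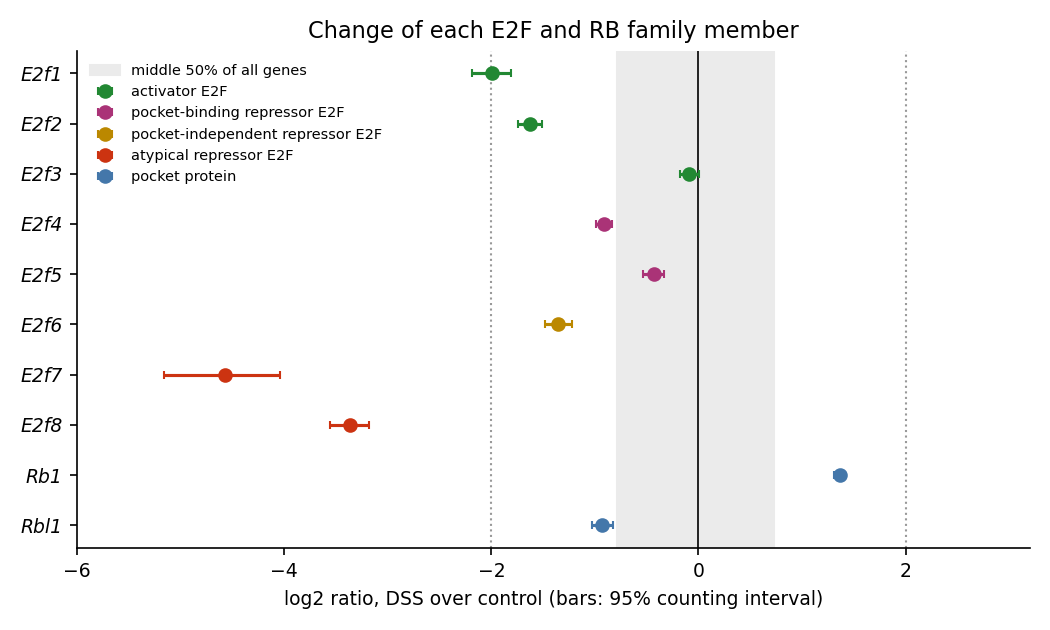
Log2 ratio of scaled counts, DSS over control, for each member, with bars for the 95% counting interval, colours for the role, a grey band for the middle 50% of all genes with at least 10 counts and dotted lines at -2 and 2. E2f7 at -4.58 and E2f8 at -3.37 lie past the lower line, E2f1 at -1.995 lies just inside it, and Rb1 at 1.36 is the only member above 0.

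E2f1, the founding member of the family and an activator that can also drive apoptosis genes, had 1451 counts in untreated and 278 in DSS-treated mIOs. Its level was 20.3 CPM without and 5.08 CPM with DSS, a log2 ratio of -1.995 (interval from -2.19 to -1.81). It lay just short of the line at -2 and passed it, at -2.25, when only total counts were used for scaling. E2f2, an activator with a role in controlled proliferation of blood cells, had 3087 and 763 counts, or 43.1 and 13.96 CPM. Its log2 ratio was -1.63, from -1.74 to -1.51. The E2f1 and E2f2 ratios thus differed by -0.37 on the log2 scale, E2f1 being lower, with an interval from -0.59 to -0.15.

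E2f3, whose gene makes a pair of isoforms from separate promoters, stood apart from the other activators. It had 2427 counts in untreated and 1744 in DSS-treated mIOs, or 33.9 and 31.9 CPM. The log2 ratio was -0.09, with an interval from -0.18 to 0.0011 that included 0. When only total counts were used for scaling it was -0.34, with an interval from -0.43 to -0.25 that did not. Counts per gene do not separate the E2f3 isoforms. Against E2f3, the log2 ratio of E2f1 was lower by 1.91 (interval of the difference from -2.12 to -1.70) and that of E2f2 by 1.54 (from -1.69 to -1.39). These differences come from counts within each library and do not depend on the scaling between them.

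E2f4 is the most abundant E2F in many resting and differentiated tissues and acts mainly with p107 and p130. It had 4274 counts (59.7 CPM) in untreated and 1736 counts (31.8 CPM) in DSS-treated mIOs, a log2 ratio of -0.91 from -0.99 to -0.83. E2f5, its closest relative, had 2090 counts (29.2 CPM) and 1183 counts (21.6 CPM), a ratio of -0.43 from -0.54 to -0.33. Both were lower in the DSS library by less than 2-fold, E2f5 the less so, with a difference of -0.48 between them (interval from -0.61 to -0.35). E2f6, the E2F of a polycomb complex, had 2022 counts (28.3 CPM) and 605 counts (11.1 CPM), a ratio of -1.35 from -1.49 to -1.22.

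The atypical repressors had the lowest ratios of the family. E2f7, which is made in S phase and represses E2F targets later in the cycle, had 905 counts (12.6 CPM) in untreated and 29 counts (0.530 CPM) in DSS-treated mIOs. Its log2 ratio of -4.58, from -5.16 to -4.04, was lower than that of all but 0.313% of the 17235 genes. E2f8, its partner in repression and in the polyploidy of some cell types, had 3394 counts (47.4 CPM) and 251 counts (4.59 CPM), a ratio of -3.37 from -3.56 to -3.18. Only 1.76% of genes had a lower ratio than E2f8. E2f7 was lower than E2f8 by a further 1.21 on the log2 scale, with a wide interval from -1.82 to -0.64 because E2f7 rested on 29 counts in the DSS library. The antisense gene Gm2788 shares 610 exon bases with E2f8 and had 62 and 9 counts.

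RB, the retinoblastoma protein, holds activator E2Fs and recruits corepressors. Rb1 had 4908 counts (68.6 CPM) in untreated and 9642 counts (176.4 CPM) in DSS-treated mIOs. Its log2 ratio was 1.36, from 1.31 to 1.41, and 85.8% of genes had a lower ratio. Rbl1, which encodes p107, a pocket protein that is itself made under E2F control in cycling cells, had 2904 counts (40.6 CPM) and 1166 counts (21.3 CPM), a ratio of -0.93 from -1.03 to -0.83. Rb1 and Rbl1 therefore went opposite ways, and their ratios differed by 2.29 (interval from 2.18 to 2.40). The third pocket gene, Rbl2 for p130, is no member of the list and had 2431 counts (34.0 CPM) and 2180 counts (39.9 CPM), a ratio of 0.23 from 0.15 to 0.32 that turned to -0.02 when only total counts were used for scaling. Rb1 lay above Rbl2 by 1.13 (from 1.03 to 1.23) and Rbl1 below it by 1.16 (from -1.29 to -1.03). In the control there were 1.69 Rb1 counts for each Rbl1 count, and in the DSS library 8.27.

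Rb1 overlaps genes on the opposite strand, Rcbtb2 with 488 shared exon bases and Lpar6 with 408. The libraries were stranded, and whether strand was used in counting is not given in the sources used here. Both neighbours were lower in the DSS library while Rb1 was higher, Rcbtb2 with 1052 and 234 counts (log2 ratio -1.78) and Lpar6 with 1582 and 766 counts (-0.66). Aktip, opposite to Rbl2 with 693 shared exon bases, had 2909 and 2421 counts and a ratio of 0.12. Rbl2 therefore had a neighbour of similar count and similar ratio.

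**Figure D3:**
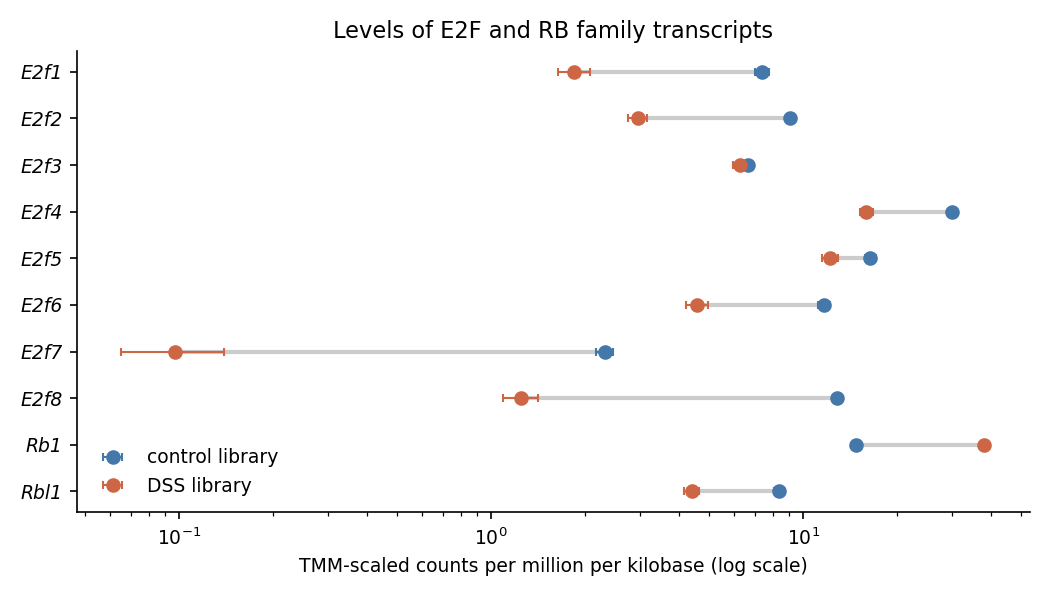
Levels of the 10 members in scaled CPM per kilobase of the longest transcript, on a log axis, with a point for each library, bars for the exact 95% Poisson interval of the count and a grey line joining the libraries. Rb1 moves from below E2f4 and E2f5 in the control library, at 14.7, to the highest level in the DSS library, at 37.9, and E2f7 is lowest in both.

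The order of levels per kilobase differed between the libraries. In the control library E2f4 led at 30.0 CPM per kilobase, followed by E2f5 at 16.4, Rb1 at 14.7, E2f8 at 12.8, E2f6 at 11.7, E2f2 at 9.10, Rbl1 at 8.35, E2f1 at 7.36, E2f3 at 6.65 and E2f7 at 2.31. No neighbours in this order had overlapping counting intervals. In the DSS library Rb1 led at 37.9 CPM per kilobase, followed by E2f4 at 15.9, E2f5 at 12.2, E2f3 at 6.26, E2f6 at 4.58, Rbl1 at 4.39, E2f2 at 2.94, E2f1 at 1.85, E2f8 at 1.24 and E2f7 at 0.0969. There the intervals of E2f6 and Rbl1 overlapped. E2f8 thus ranked above all activator E2Fs in the control and below all of them in the DSS library. On this scale E2f3 moved from the lowest activator to the highest. In plain counts E2f1 was the lowest activator in the control, with 1451 counts against 2427 for E2f3. With the median transcript length E2f1 and E2f3 were close there, at 7.45% and 7.44% of the summed E2F level. The order between genes rests on the transcript length chosen as well as on the counts.

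Read as a pool and per kilobase, the E2F transcripts kept their share of activators and lost their share of atypical repressors. The summed E2F level was 96.3 CPM per kilobase without and 45.1 with DSS. Activators made up 24.0% of it without and 24.5% with DSS, with E2f3 going from 6.91% to 13.9% and E2f1 from 7.64% to 4.10%. E2f4 and E2f5 together went from 48.1% to 62.3%, E2f6 from 12.1% to 10.2%, and E2f7 and E2f8 from 15.7% to 2.98%. In plain counts, without length, the atypical share was 21.9% (exact binomial 95% interval from 21.3% to 22.5%) in the control and 4.25% (from 3.78% to 4.76%) in the DSS library. On that scale the activator share was 35.4% (from 34.8% to 36.1%) and 42.3% (from 41.1% to 43.5%), so whether it was level or higher depends on the length scaling.

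**Figure D4:**
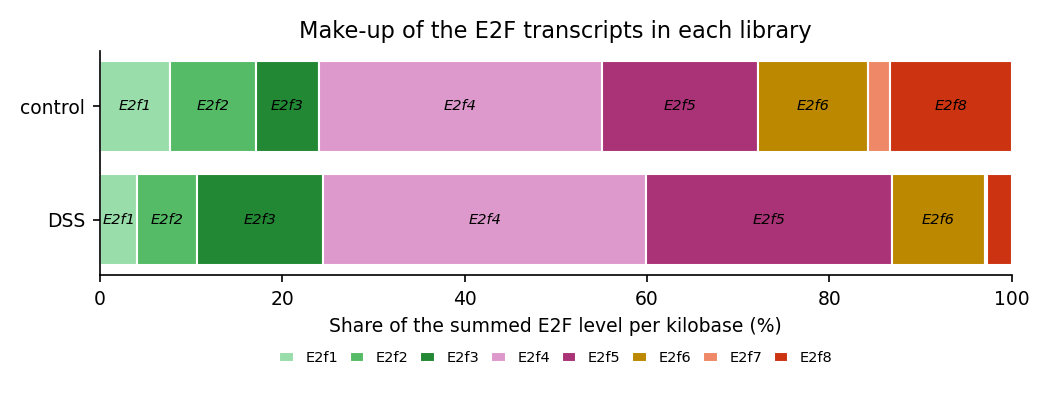
Share of each E2F gene in the summed E2F level per kilobase, in percent, with a bar for each library and green for activators, purple for E2f4 and E2f5, yellow for E2f6 and orange and red for E2f7 and E2f8. The atypical share shrinks from 15.7% to 2.98%, and the E2f4 and E2f5 share widens from 48.1% to 62.3%.

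Activators and repressors were set against each other by role. The median log2 ratio was -1.63 for the 3 activators and -1.35 for the 5 repressors, whose ratios ran from -4.58 to -0.43. Within the repressors the median was -0.67 for E2f4 and E2f5 and -3.97 for E2f7 and E2f8, so the split within the repressors was wider than that between the groups. Summed counts gave 1.09 activator counts for each count of E2f4 and E2f5 in the control and 0.954 with DSS, a log2 difference of -0.20 with an interval from -0.29 to -0.11. Summed E2f7 and E2f8 counts were 0.617 per activator count in the control and 0.101 with DSS, a difference of -2.62 (from -2.81 to -2.43). For each activator count there were 0.705 Rb1 counts in the control and 3.46 with DSS, a difference of 2.30 (from 2.22 to 2.38).

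The DP partners that E2F1 to E2F6 need for DNA binding split in the same table. Tfdp1 had 8993 counts (125.7 CPM) in untreated and 1560 counts (28.5 CPM) in DSS-treated mIOs, a log2 ratio of -2.14 from -2.22 to -2.06. Tfdp2 had 2290 counts (32.0 CPM) and 1702 counts (31.1 CPM), a ratio of -0.04 from -0.13 to 0.05. There were 3.93 Tfdp1 counts for each Tfdp2 count in the control and 0.917 with DSS. Of the 5 MuvB core genes, Lin9 was at -2.16 and Rbbp4, a histone-binding protein with other partners too, at -1.45, while Lin54 was at -0.44, Lin52 at -0.39 and Lin37 at 0.06, which turned to -0.20 with total counts only. The factors that turn MuvB into an activator were lower throughout, Foxm1 at -4.61 with 4037 and 126 counts, Mybl2 at -3.40 and Mybl1 at -1.997, just inside the line. Dyrk1a, the kinase that promotes DREAM assembly, was at 0.25 with TMM factors and at -0.0032 with total counts only.

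Cyclins and kinases that phosphorylate pocket proteins were below 0 in all 9 cases, where 52.0% of all genes stood. Of the 6 cyclins, Ccna2 was at -4.56, Ccnd1 at -2.94, Ccne2 at -2.20, Ccne1 at -2.16, Ccnd2 at -1.22 and Ccnd3 at -0.27. Ccnd2 had the most counts of the cyclins in both libraries, 34468 and 11301. The kinase genes Cdk2, Cdk4 and Cdk6 were at -2.45, -1.99 and -1.57. Of 6 listed CDK inhibitors, 3 were above 0 (48.0% of all genes) and 3 below. Cdkn2b, which encodes the CDK4 and CDK6 inhibitor p15, had 768 and 3405 counts, a ratio of 2.54 from 2.42 to 2.65. Cdkn1c (p57) was at 0.96 and Cdkn1a (p21) at 0.86, the latter with 19369 and 26794 counts. Cdkn1b (p27) was at -0.45, Cdkn2d at -0.83 and Cdkn2c, an E2F-responsive inhibitor, at -1.88, and Cdkn2a was not listed. Among ubiquitin ligase parts, Ccnf at -3.85, which targets activator and atypical E2Fs, Cks1b at -3.18 and Skp2 at -2.33 were low, while Fbxw7 was at -0.27 and Fzr1 at 0.03, or -0.22 with total counts only. Over the 20 listed genes of upstream control, 8 were at -2 or less (6.54% of all genes) and 1 at 2 or more (7.87% of all genes). Their median was -1.72.

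Genes of the G1/S and G2/M phases on which E2Fs and MuvB act were read in the same way. Of 48 G1/S genes known as E2F targets, 34 had a log2 ratio of -2 or less (6.54% of all genes). Of the 48, 47 were below 0 (52.0% of all genes), and the median was -3.03, against -0.06 over all genes. The lowest were the exonuclease Exo1 at -5.13 and the replicative helicase subunits Mcm5 at -4.70 and Mcm3 at -4.39. Among the highest were the sliding clamp Pcna at -0.71 and Cdc25a, a phosphatase that activates Cdk2, at 0.33 from 0.26 to 0.40. Pcna still had 9370 counts in the DSS library, after 20088 in the control. Of 40 G2/M genes known as targets of MuvB and FOXM1, 39 were at -2 or less (6.54% of all genes), with a median of -3.99. Ndc80 at -4.77, Aurkb at -4.65 and Pbk at -4.64 were lowest. Cks2 at -2.20 and Cdc25b at -2.10 were the highest of the 39, and Pttg1, securin, was at 0.07 with an interval from -0.08 to 0.22 and at -0.19 with total counts only. Of the family, only E2f7 lay below the median of the G2/M genes, and only E2f7 and E2f8 lay below the median of the G1/S genes.

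**Figure D5:**
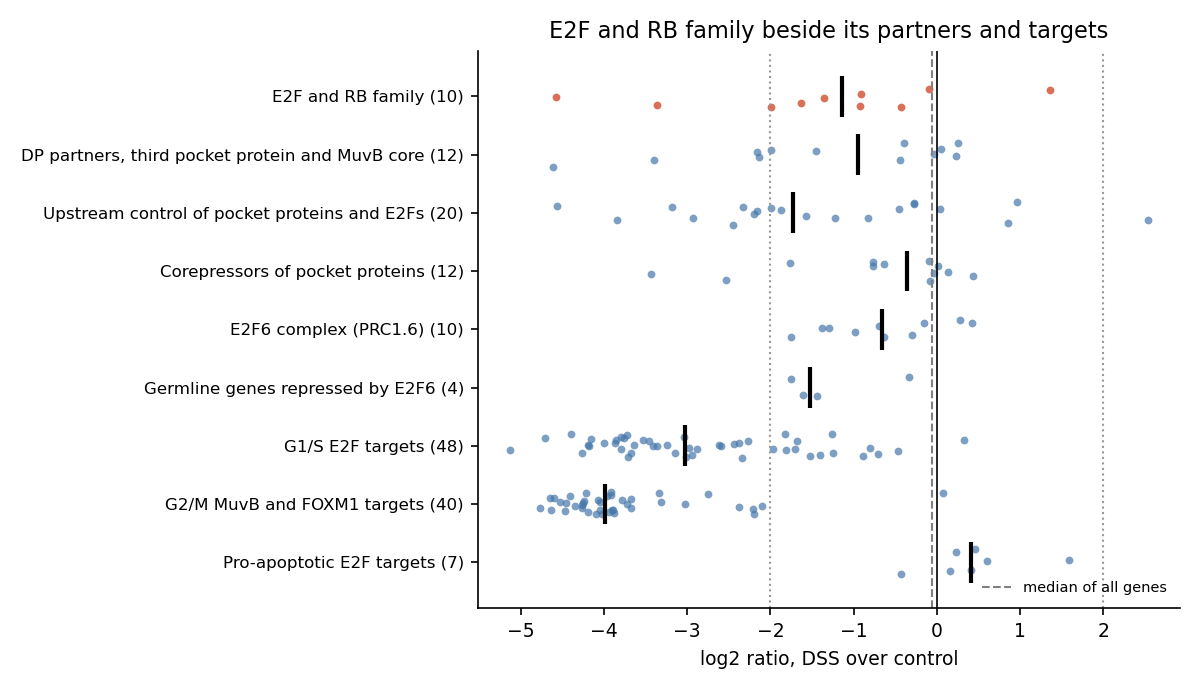
Log2 ratio, DSS over control, of each gene with at least 10 counts in one library, in the E2F and RB family (top row, red) and in lists of its partners, controls and targets (blue), with the number of genes in parentheses, a black bar at each list's median, a dashed line at the median of all genes and dotted lines at -2 and 2. The medians are -1.14 for the family, -3.03 for G1/S targets and -3.99 for G2/M targets.

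The motif letters of the family could be read beside these targets. Of 37 G1/S genes with a promoter window, 19 (51.4%) held an E2F site and 5 (13.5%) a CHR. Of 35 G2/M genes, 1 (2.86%) held an E2F site and 25 (71.4%) a CHR. The shares over genes with at least 10 counts were 4.36% and 15.1%. Both lists hold genes already known as targets of E2Fs or of MuvB and FOXM1, so these shares describe the lists and test nothing. E2f8 held a core and a CHR, E2f7 an E2F site and no CHR in its window.

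E2F6 acts in a polycomb complex, PRC1.6, that silences germline genes. Of its 10 other subunits, none was past -2 or 2, 8 were below 0 (52.0% of all genes), and the median was -0.66. Cbx3 at -1.76, Wdr5 at -1.38 and L3mbtl2 at -1.30 were lowest, and Mga, its scaffold, at 0.28 and Rybp at 0.42 were highest. With total counts only, Cbx3 passed the line at -2.01. Of 14 germline genes that E2F6 is known to repress, 4 were listed. All 4 were below 0 (52.0% of all genes), with Zcwpw1 at -1.75 (198 and 45 counts), Ddx4 at -1.61 (68 and 17 counts), Tdrkh at -1.44 and Stag3 at -0.34, the last with an interval from -0.90 to 0.21. Total counts put Zcwpw1 past the line, at -2.005. The other 10 were not listed, and the table lists no gene with 0 counts in either library.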

How the data were processed

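mRNA-seq was done on 1 control and 1 DSS-treated culture of mIOs. The values deposited by the authors are raw read counts, and the single-sample files, although named FPKM, repeat them for all 19294 genes. Submitters' processing notes name HISAT2 and StringTie without version or role, and the genome build is not given in the sources used here.

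Scaling used TMM factors (edgeR 4.0.16, R 4.3.3). Ratios carry exact Clopper-Pearson 95% intervals, and differences between 2 genes are odds ratios of their 4 counts with conditional exact intervals. Medians and shares of genes cover those reaching 10 counts in either library. Transcript lengths came from protein-coding transcripts of GENCODE vM21 and promoter windows from RefSeq on GRCm38.p6. In counts simulated for these libraries over 17059 genes, all 200 genes given a log2 change of 3 or -3 passed the line of 2. Of the unchanged genes, 26 did too, and 95.4% had an interval with 0. The simulation changed 200 genes, where in the data 3486 of 17235 were at -1 or less and 3330 at 1 or more. It therefore cannot show how scaling or differences between replicate cultures affect the ratios here.

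The members and 14 further lists, 6 of them cell type markers, were chosen with earlier results of these data known. Named are all members, the DP, MuvB and upstream genes, and the 3 highest and lowest genes of each other list with 50 or more counts in one library, except a few genes that are not reported here by name. Alternatives were size factors of DESeq2 1.42.0, scaling by totals or upper quartiles, centering, a prior count of 2, thinning, other filters and other length scalings. Other work used Python 3.11.15, numpy 2.4.6, scipy 1.17.1, pandas 2.3.3 and matplotlib 3.10.9.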

Additional observations from a re-analysis of the deposited data

How the results depend on the processing

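Of the 10 members, 9 kept the sign of their log2 ratio under all 6 alternatives for scaling, prior count and depth, and E2f3 ran from -0.34 to 0.0022. E2f1 ran from -2.25 to -1.90 and so crossed the line at -2 with total counts, which put 3 members at -2 or less and 7 at -1 or less. Scaling by total counts only shifted every ratio by -0.26 and upper quartile factors by 0.09. Over all genes this gave 1521 genes at -2 or less and 1087 at 2 or more with total counts, against 1127 and 1356 with TMM factors. At -1 or less there were 4508 of the 17235 genes with total counts, against 3486 with TMM factors. Total counts put the medians at -1.88 for activators, -0.93 for E2f4 and E2f5, -1.61 for E2f6 and for all repressors, -3.29 for G1/S targets and -4.25 for G2/M targets, each lower by the same shift, and turned the median of Rb1 and Rbl1 from 0.22 to -0.039. With upper quartile factors that median was 0.31. Total counts also turned Rbl2 to -0.025, Dyrk1a to -0.0032, Kdm5a to -0.13 and Casp8 to -0.030, and put Lin37 at -0.20, Fzr1 at -0.22, Pttg1 at -0.19 and Arid4a at -0.24, each near 0 with TMM factors. They lowered the median of the apoptosis genes from 0.41 to 0.16 and put 1 gene of the E2F6 complex and 1 germline gene at -2 or less, where TMM factors put none. Genes at -2 or less also went from 4 to 5 in the DP and MuvB list and from 8 to 10 in upstream control. For corepressors they went from 2 to 3 and for G1/S targets from 34 to 37. Tfdp2 turned to 0.05 with upper quartile factors and 0.02 with centering, and Arid4a to -0.0042 with thinning, within their intervals. Without length scaling, the E2F shares in the control and DSS libraries were 35.4% and 42.3% for activators, 32.4% and 44.3% for E2f4 and E2f5, 10.3% and 9.18% for E2f6, and 21.9% and 4.25% for E2f7 and E2f8. With the median transcript length, E2f4 and E2f5 made up 46.9% and E2f7 and E2f8 17.3% of the control level. DESeq2 size factors, a prior count of 2, thinning and other filters on low counts moved no ratio or median named here beyond its counting interval and no count by over 1.5 times, and centering on the median of all genes did so for 8 single-gene ratios, raising each by 0.06, Rb1 (1.42) among them. No paired analysis was possible because each condition is 1 library, and for the same reason no library could be left out. At this depth the interval of E2f7 is the widest of the family.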

Other observations

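Pocket proteins repress through chromatin enzymes. Of 12 corepressor genes, 2 were at -2 or below on the log2 scale, where 6.54% of all genes stood, and the median was -0.36. Suv39h1, a histone H3 methyltransferase, was at -3.44 with 2678 and 189 counts, Rbbp7, a histone-binding partner of deacetylases, at -2.53, and the deacetylase Hdac2 at -1.76. With total counts only, Hdac2 passed the line at -2.02, and 3 of the 12 were at -2 or less. Arid4a, an RB-binding protein, was at 0.01, the demethylase Kdm5a at 0.13 and Arid4b at 0.44, and total counts turned the first to -0.24 and Kdm5a to -0.13.

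Activator E2Fs can also switch on apoptosis genes. Of 9 such genes 7 were listed, and 6 of them were above 0 (48.0% of all genes), with a median of 0.41 (0.16 with total counts only) and none at 2 or more (7.87% of all genes). Pmaip1, which encodes the BCL2 antagonist NOXA and is also a p53 target, had 7851 counts in untreated and 18072 in DSS-treated mIOs, a ratio of 1.59 from 1.55 to 1.63. Apaf1, the scaffold of the apoptosome, was at 0.45, Casp8 at 0.23 and Bbc3 at -0.43. With total counts only, Casp8 was below 0, at -0.03.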
